A study of Mus musculus with 2 samples.

Results

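Transcripts of 4 hormones that stressed cells secrete, Gdf15, Fgf21, Stc2 and Adm2, were examined in mouse E14.1 cells, a line of embryonic stem cells. They are 4 of the 25749 genes in the deposited values, and each matched 1 Ensembl identifier. The 4 genes were chosen by name with their values in this same contrast already known, so their levels and ratios are a description and carry no test. The study holds 1 RNA-seq library of cells with wild-type AHCY (WT) and 1 of cells with T136A AHCY, in which alanine replaces a threonine of the enzyme. AHCY breaks down S-adenosylhomocysteine, the by-product of methylation reactions. How the T136A cells were made, whether they are a single clone, and how either culture was kept are details that the labels leave out. With 1 library per genotype no spread between replicates can be measured, and "higher" and "lower" below refer to these libraries.

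All of these genes encode proteins that leave the cell and act elsewhere, and all are known targets of the integrated stress response. In that response, kinases that sense missing amino acids, unfolded proteins, haem shortage or viral RNA phosphorylate the translation factor eIF2, which lowers general protein synthesis but raises translation of the transcription factor ATF4. GDF15 is a distant member of the TGF-beta family that reduces appetite through the brainstem receptor GFRAL with its partner RET. FGF21 is a circulating fibroblast growth factor, best known from the fasting liver, which needs the co-receptor beta-klotho (Klb) beside an FGF receptor. STC2 is a glycoprotein that inhibits pappalysins, the proteases that free insulin-like growth factors from their binding proteins. ADM2, also called intermedin, is a peptide of the calcitonin family that acts through the receptor CALCRL with a RAMP accessory protein.

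The loci lie on different chromosomes (GRCm38, GENCODE M21). Stc2 (ENSMUSG00000020303) spans chr11:31357307-31370074 on the minus strand, with 4 exons in its longest coding transcript. Gdf15 (ENSMUSG00000038508) spans chr8:70629393-70632456 on the minus strand, with 3 exons. Adm2 (ENSMUSG00000054136) spans chr15:89322720-89324731 on the plus strand, with 3 exons. Fgf21 (ENSMUSG00000030827) spans chr7:45613886-45615490 on the minus strand, with 3 exons. In this annotation 0 genes overlapped any of them, so it holds no antisense partner that could share their reads. Other annotations, and transcripts that are not annotated, were not checked.

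The sequences just upstream of the transcription starts are shown because all 4 genes had lower values in T136A and the promoters are where a shared element would be looked for. Each is the 250 bases before the start in RefSeq (GRCm38.p6), read 5′ to 3′ on the gene's strand, and capitals mark matches to the motifs named below. They come from chr7:45615491-45615740 (Fgf21, minus strand), chr8:70632457-70632706 (Gdf15, minus), chr11:31370062-31370311 (Stc2, minus) and chr15:89322470-89322719 (Adm2, plus).
Fgf21: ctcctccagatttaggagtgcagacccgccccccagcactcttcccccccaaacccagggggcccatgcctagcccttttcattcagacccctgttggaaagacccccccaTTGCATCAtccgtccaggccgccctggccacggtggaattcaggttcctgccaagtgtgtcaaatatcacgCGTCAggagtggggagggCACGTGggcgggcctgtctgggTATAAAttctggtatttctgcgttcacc
Gdf15: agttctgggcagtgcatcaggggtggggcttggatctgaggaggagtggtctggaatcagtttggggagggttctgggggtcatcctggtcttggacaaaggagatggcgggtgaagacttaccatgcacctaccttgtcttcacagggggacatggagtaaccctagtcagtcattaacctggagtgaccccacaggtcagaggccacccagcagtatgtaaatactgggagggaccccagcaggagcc
Stc2: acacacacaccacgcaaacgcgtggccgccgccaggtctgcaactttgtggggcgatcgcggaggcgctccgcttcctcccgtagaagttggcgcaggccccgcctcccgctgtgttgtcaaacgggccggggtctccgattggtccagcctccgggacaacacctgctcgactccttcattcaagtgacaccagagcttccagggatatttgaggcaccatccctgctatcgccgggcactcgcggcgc
Adm2: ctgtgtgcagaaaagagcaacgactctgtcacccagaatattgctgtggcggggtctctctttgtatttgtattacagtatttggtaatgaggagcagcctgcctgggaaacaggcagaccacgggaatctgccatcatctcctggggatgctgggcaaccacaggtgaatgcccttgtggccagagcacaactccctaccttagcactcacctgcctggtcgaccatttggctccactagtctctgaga

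Windows from 250 bases before to 50 bases after the start were searched on both strands for 7 motifs. They were TGATGNAA, the core of the C/EBP-ATF response element (CARE) that ATF4 binds, the cyclic AMP response element TGACGTCA and its first 5 bases TGACG, the hypoxia core ACGTG, and the TATA box TATAAA. The others were the ER stress response element, CCAAT and CCACG with 9 bases between, and the PPAR element, 2 copies of AGGTCA with 1 base between. TGACG is contained in TGACGTCA, so these overlap. Among the hormones' windows only that of Fgf21 held the CARE core, as TTGCATCA on the opposite strand, beginning 139 bases before the start. The same window held TGACG on the opposite strand 68 bases before the start, the hexamer CACGTG, which reads as ACGTG on either strand, from 50 bases before, and TATAAA 28 bases before. Gdf15 has a second RefSeq start inside the gene, whose window held CACGTG 83 bases before that start. The first Gdf15 window and those of Stc2 and Adm2 held 0 of the 7, which says only that these letters are not in these windows.

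Of all 32851 RefSeq promoter windows of this length, 3.97% held the CARE core, 20.8% TGACG, 19.6% ACGTG and 13.6% TATAAA. In the 11332 windows of expressed genes the shares were 2.13%, 31.4%, 26.0% and 6.61%, and the CARE core was in 8.21% of the 329 windows of genes at least 2-fold lower. Over all windows the rarer motifs were TGACGTCA at 1.79%, the ER stress element at 0.119% and the PPAR element at 0.0396%. The base composition of the upstream stretches also differed between the hormones. Stc2 had 24 CpG and 64.4% G and C, whereas Gdf15 had 1 CpG and 56.4%, Adm2 had 4 and 52.8%, and Fgf21 had 9 and 59.6%. The median over 11332 windows of expressed genes was 16 CpG and 60.0%. The map of motif matches by distance from the start shows the crowding at Fgf21.

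**Figure D1:**
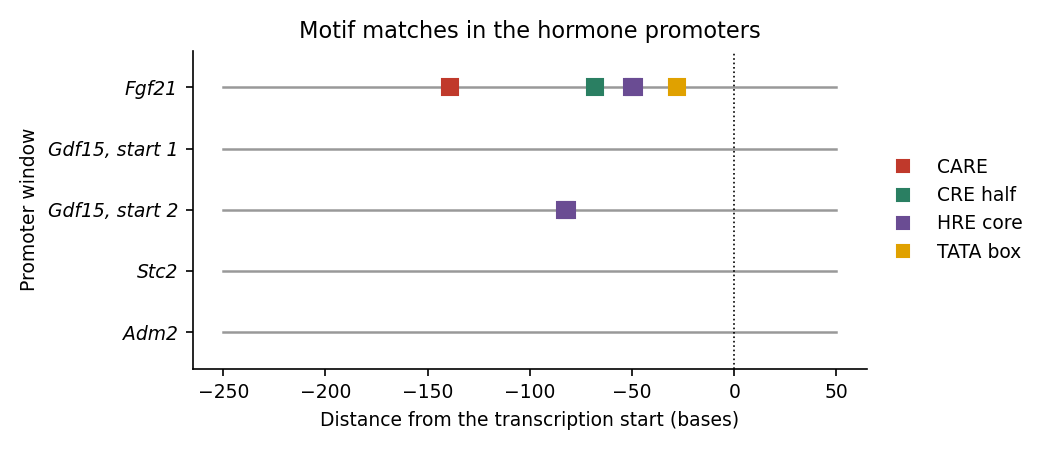
Motif matches in the promoter windows of the 4 hormones, with Gdf15 shown for both of its starts. The horizontal axis is the distance in bases from the transcription start (dotted line), each grey line is 1 window, and each square marks the first base of a match; the Fgf21 window holds the CARE core and 3 other motifs, and the windows of Stc2, Adm2 and the first Gdf15 start hold none of those searched.

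The libraries were of similar size, with implied totals of 17506154 reads in WT and 18396840 in T136A. Ahcy stood at 52.95 RPKM (WT) and 56.63 RPKM (T136A), which cannot check the labels, since a replaced codon need not alter the transcript level. All 10 pluripotent-cell markers looked for were above 1 RPKM in both libraries, and their summed level was 4199 RPKM in WT and 4171 in T136A. Dppa5a was the largest part of each sum (2182 and 1969 RPKM), so the sums say little of the other markers. At least 2-fold higher in T136A were 2 of the 10, Utf1 (94.2 and 284 RPKM) and Dppa4 (34.2 and 74.0 RPKM), and 0 were at least 2-fold lower. Among all genes that reached 1 RPKM in either library, 3.13% were at least 2-fold higher and 3.10% at least 2-fold lower. Of 7 liver genes, 0 reached 1 RPKM, with sums of 0.800 and 0.994 RPKM and Fgb and Serpina1a at 0 in both. The same held for the 4 trophoblast genes found of 7 listed, with sums of 0.235 and 0.584 and no gene at 1 RPKM. Thy1 was the single fibroblast marker of 5 above that level, and the 5 summed to 3.01 and 5.998 RPKM. Primitive endoderm genes summed to 95.4 and 113 RPKM, most of it Sparc. Markers of each other cell type had higher sums in T136A. The liver and trophoblast sums came from genes all under 1 RPKM, and single liver genes went both ways, so little is read from them. The part of other cell types in the results was not tested.

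All 4 hormone transcripts were lower in T136A. Stc2, Gdf15 and Adm2 were 8.56-, 6.22- and 10.7-fold lower in plain RPKM, and Fgf21 went from a low level to 0 reads. Their summed level was 78.7 RPKM (WT) and 9.66 RPKM (T136A), 8.15-fold lower. In bulk RNA, fewer cells that express a gene and less of its RNA per cell cannot be told apart.

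**Figure D2:**
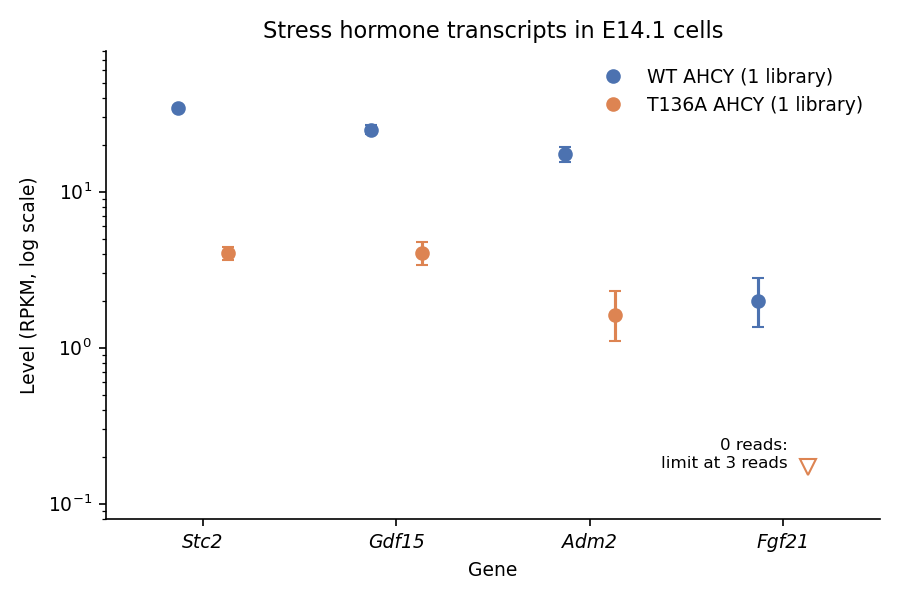
Levels of Stc2, Gdf15, Adm2 and Fgf21 in the WT (blue) and T136A (orange) libraries, in RPKM on a log scale. Bars are exact 95% Poisson intervals of the read number, which cover counting error only; the open triangle marks the level that 3 reads would give for Fgf21 in T136A, where 0 reads were listed. Each WT point lies above the T136A point or triangle of its gene, and the bars of Stc2, Gdf15 and Adm2 do not overlap between libraries. No bar is drawn for Fgf21 in T136A, where the exact upper limit is 0.211 RPKM.

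Stc2, the pappalysin inhibitor, was the most abundant of the hormones in WT. It stood at 34.4 RPKM in WT (95% Poisson interval 33.2 to 35.7, from 3119 reads) and at 4.02 RPKM in T136A (3.63 to 4.45, from 383 reads). The T136A level was 8.56-fold lower, with a 95% exact binomial counting interval of 7.69 to 9.54. These intervals speak of read numbers in a single pair of libraries, and PCR copies were not marked, so reads are not independent molecules.

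Gdf15, the appetite-reducing hormone, was at 25.01 RPKM in WT (23.3 to 26.8, from 811 reads) and at 4.02 RPKM in T136A (3.38 to 4.75, from 137 reads). It was 6.22-fold lower, with a counting interval of 5.18 to 7.51. The WT and T136A values were far apart, yet in T136A Gdf15 was exceeded in level by 30.1% of the 25740 genes, against 9.75% in WT.

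Adm2, the calcitonin-family peptide, was at 17.3 RPKM (WT) and 1.62 RPKM (T136A). Its values do not give whole reads with the M21 exon length of 1298 bases. They do with a length of 1043 bases, which makes them 316 and 31 reads, the smallest whole numbers in the ratio of the 2 values. With those inferred reads the level was 10.7-fold lower in T136A, with a counting interval of 7.40 to 16.03. The Poisson intervals were 15.5 to 19.3 RPKM in WT and 1.10 to 2.29 RPKM in T136A.

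Fgf21, the fasting hormone, was the weakest. It was at 1.98 RPKM in WT (1.36 to 2.78, from 33 reads) and listed at 0 in T136A. A count of 0 allows up to 3 reads, or 0.171 RPKM, in T136A. Against that floor Fgf21 was at least 11.6-fold lower, not allowing for the counting error of the WT reads. The counting interval of the fold, which does allow for it, began at 8.89 and had no upper end.

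The order of the hormones by level was Stc2, Gdf15, Adm2 and Fgf21 in WT, and no neighbours in that order had overlapping counting intervals. In T136A, Stc2 and Gdf15 were level at 4.02 RPKM, with Adm2 below them and Fgf21 at 0. Stc2 made up 43.7% of the summed hormone RPKM in WT and 41.6% in T136A, whereas Gdf15 went from 31.8% to 41.6%. Adm2 went from 22.0% to 16.7%. The counting intervals of the fold did not overlap between Gdf15 (5.18 to 7.51) and Stc2 (7.69 to 9.54), while that of Adm2 overlapped both. The differences between the folds were not tested.

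Among all genes the hormones lay at the lower edge. On the log2 scale with 1 RPKM added to each value, which understates changes of weak genes, the log2 ratio of T136A to WT was -2.82 for Stc2, -2.81 for Adm2, -2.37 for Gdf15 and -1.58 for Fgf21. Fgf21 would be at -1.35 with its 0 set to 3 reads. Counted from the lowest ratio of 12320 expressed genes (those that reached 1 RPKM in WT or T136A), Stc2 held rank 7, Adm2 rank 8, Gdf15 rank 14 and Fgf21 rank 71. These ranks depend on the added constant: with 0.1 RPKM added they were 45, 40, 59 and 7, and with 5 RPKM added 7, 12, 14 and 833. All 4 hormones were at least 2-fold lower. Over all expressed genes 3.10% were at least 2-fold lower and 3.13% at least 2-fold higher, and the median log2 ratio was -0.03. Since these values chose the genes, nothing is read from that contrast. The spread of the other genes around the diagonal is seen in the plot of every expressed gene.

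**Figure D3:**
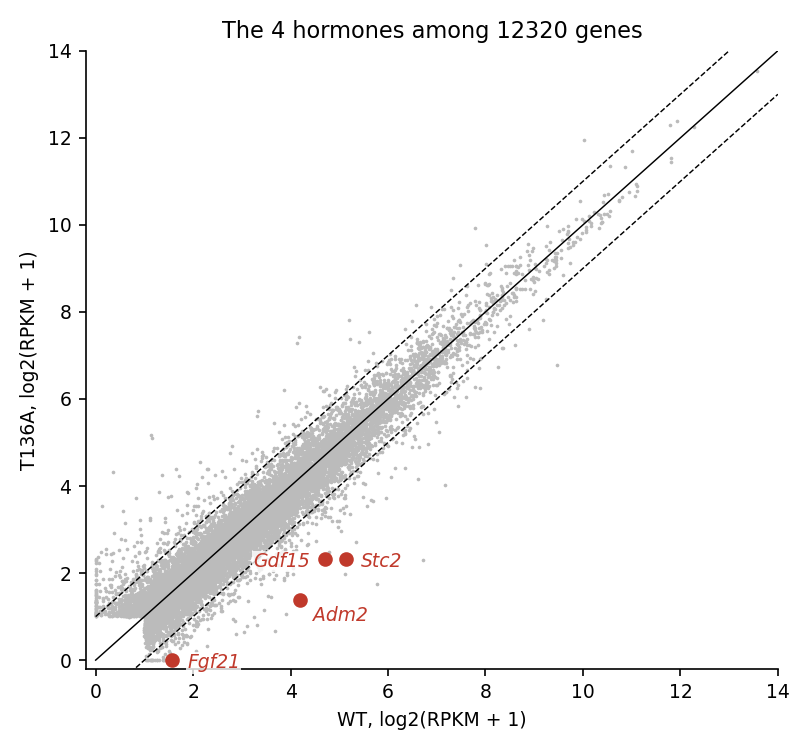
Level of each of 12320 expressed genes (grey dots) in WT (horizontal axis) and T136A (vertical axis), as log2 of RPKM + 1, with the 4 hormones in red. The solid line marks equal levels and the dashed lines a 2-fold difference; all 4 hormones lie under the lower dashed line, and Fgf21 sits at 0 on the vertical axis.

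Genes whose levels in the 2 libraries came nearest to those of each hormone were found by distance on the log2 scale, over 10914 candidates. This likeness rests on 2 values per gene. Nearest to Gdf15 were Herpud1, which helps clear misfolded proteins from the endoplasmic reticulum (25.8 and 4.43 RPKM), and the alanine transaminase Gpt2 (26.8 and 4.57 RPKM). The third was the relaxin-family peptide Rln3 (21.9 and 5.66 RPKM). Herpud1 and Gpt2 were also among the nearest to Stc2, after the lipolysis inhibitor G0s2 (33.6 and 2.93 RPKM).

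Nearest to Fgf21 was Inhbe, which encodes another secreted hormone, an activin subunit of the liver (1.93 and 0.0715 RPKM). It was followed by the proton pump subunit Atp12a (1.89 and 0.0677 RPKM) and the transcriptional repressor Ripply1 (1.83 and 0.0670 RPKM). For Adm2 the nearest were Ubap1l (13.9 and 1.08 RPKM), Dmrtb1, a regulator of germ cells (13.5 and 2.58 RPKM), and the tight-junction protein Cldn7 (13.6 and 2.68 RPKM). Of these 10 genes, 9 had a promoter window, and the CARE core was in those of Herpud1 and Inhbe and in none of the other 7.

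Most expressed relatives of the hormones lay within the 2-fold line with 1 RPKM added, though 3 had ratios below 0. Among all expressed genes, 3.10% were at least 2-fold lower and 3.13% at least 2-fold higher. Of 17 family members listed, 14 were found and 5 were expressed, of which 1 was at least 2-fold lower, 0 were higher and 4 lay between, with a median log2 ratio of -0.14. Stc1, the paralogue of Stc2, was at 0.0681 RPKM (WT) and 0.479 RPKM (T136A), under 1 RPKM in both. Adm, which encodes adrenomedullin and is the nearest relative of Adm2, was likewise at 0.212 and 0.806 RPKM. For both paralogues the T136A value was the higher, where that of the stress hormone was the lower. Calca, which encodes calcitonin and its gene-related peptide, was at 2.65 and 1.10 RPKM, 2.41-fold lower (counting interval 1.59 to 3.72) in plain RPKM. Its log2 ratio with 1 added was -0.80, but it passed the 2-fold line with 0.1 added (-1.20) and under TPM scaling (-1.05).

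Among the other growth factors, Gdf3, a Nodal-related factor of pluripotent cells, was at 84.9 and 37.8 RPKM, 2.24-fold lower (2.12 to 2.38), and passed the 2-fold line except under upper-quartile scaling, with a log2 ratio of -0.99. Fgf15, a circulating FGF like Fgf21, was at 1.34 RPKM (WT) and 1.85 RPKM (T136A), 1.37-fold higher (1.01 to 1.88). Fgf23, also of that subfamily, was listed at 0 in both. Fgf4, the autocrine FGF of embryonic stem cells, was at 67.5 and 61.0 RPKM, and Fgf17 at 15 and 23.3 RPKM. Within each family the stress-responsive hormone had the lowest ratio. The hormones were chosen with their low values known, so nothing is read from that order.

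Receptors of the hormones were mostly at very low levels. Of 13 listed, 12 were found and 4 expressed, with 0 at least 2-fold apart and a median log2 ratio of 0.36. Ret, the signalling partner of GFRAL, was at 0.245 RPKM (WT) and 0.354 RPKM (T136A); Gfral itself was not analysed here. Klb, the co-receptor that FGF21 requires, was at 0.0377 and 0.227 RPKM. The FGF receptors Fgfr1 (5.80 and 5.95 RPKM) and Fgfr4 (1.35 and 1.57 RPKM) had counting intervals of the fold that included 1.

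Fgfr3 stood at 0.527 RPKM (WT) and 1.32 RPKM (T136A), 2.51-fold higher (1.88 to 3.38) in plain RPKM. With 0.1 added its log2 ratio was 1.18, past the 2-fold line. For ADM2, the receptor Calcrl was at 0.0936 and 0.0223 RPKM, Ramp1 at 0 and 0.0180, and Ramp2 at 0.277 and 0.379. Ramp3, an accessory protein that directs CALCRL towards adrenomedullins, was expressed at 7.57 RPKM (WT) and 15.8 RPKM (T136A), 2.09-fold higher (1.75 to 2.497). Its log2 ratio with 1 added was 0.97, just inside the 2-fold line, and it lay outside that line under each of the 4 other scalings (1.01 to 1.11) and with 0.1 added (1.05). All 4 expressed receptors thus had T136A values above their WT values, by margins that for Fgfr1 and Fgfr4 lay within counting error.

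Enzymes that mature or degrade the hormones, listed together with the pappalysin axis of STC2, were within the 2-fold line with 1 RPKM added. Pcsk1 passed that line with 0.1 added (-1.05). Of 15 listed, 13 were found and 7 expressed, with 0 at least 2-fold apart and a median log2 ratio of 0.01. Furin, a protease that cuts many prohormones, was at 2.33 and 1.65 RPKM, 1.41-fold lower (1.21 to 1.66). Pcsk1, the convertase of endocrine granules, was at 1.29 and 0.572 RPKM, 2.26-fold lower (1.65 to 3.14) in plain RPKM. Its relatives Pcsk6 (10.6 and 10.7 RPKM) and Pcsk7 (3.94 and 4.27 RPKM) had intervals that included 1. Pam, which amidates peptides such as those of the calcitonin family, stayed under 1 RPKM, at 0.567 and 0.800.

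The peptidases Dpp4 (4.02 and 4.41 RPKM) and Mme (2.43 and 2.13 RPKM) were within 1.5-fold. On the side of STC2, Pappa2 was listed at 0 in both libraries and Pappa was not analysed here. Igfbp4, the binding protein that pappalysins cut, was at 4.42 RPKM (WT) and 4.89 RPKM (T136A), and its interval included 1. Stc2 was therefore lower in a library where Igfbp4 differed from WT by no more than counting error.

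Other secreted proteins known from stressed cells went both ways. For comparison, 3.10% of all expressed genes were at least 2-fold lower and 3.13% at least 2-fold higher. Of 16 listed, 15 were found and 9 expressed, of which 2 were at least 2-fold lower, 1 was at least 2-fold higher and 6 lay between, with a median log2 ratio of -0.17. The lower ones were Fst, the activin-binding follistatin (8.91 and 0.757 RPKM, 11.8-fold lower), and Inhbe, at 27.0-fold lower (12.8 to 68.2, from 180 and 7 reads). Angptl6, a liver-derived growth factor, was at 3.72 and 1.75 RPKM, 2.12-fold lower (1.503 to 3.03) in plain RPKM, and Lif, the cytokine that maintains these cells, at 3.22 and 2.12 RPKM. Angptl6 passed the 2-fold line with 0.1 added (-1.04).

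In the opposite direction, Manf, a neurotrophic factor released when the endoplasmic reticulum is stressed, was at 8.27 RPKM (WT) and 26.2 RPKM (T136A), 3.16-fold higher (2.86 to 3.501). Creld2, also secreted on such stress, was at 59.8 and 65.9 RPKM. Vegfa, the vascular growth factor, was at 25.1 and 22.2 RPKM, Hbegf at 15.1 and 13.9, and the lipase inhibitor Angptl4 at 8.71 and 12.4. Low T136A values were thus not shared by all secreted stress proteins of this list. The strip plot of each list sets these values beside those of the hormones.

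**Figure D4:**
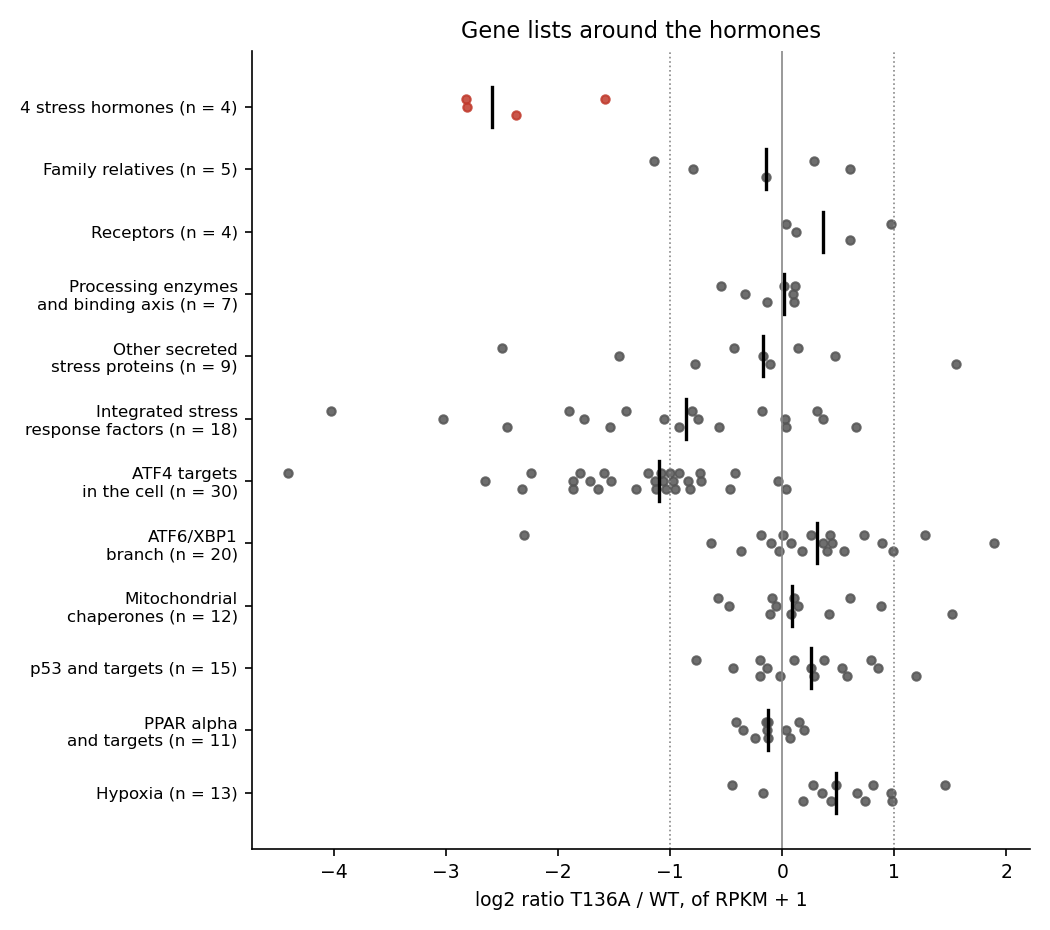
The log2 ratio of T136A to WT (RPKM + 1) for every expressed gene of 12 lists, with 1 point per gene, the hormones in red and a black bar at each list's median. Dotted lines mark a 2-fold difference; the hormones have the lowest median (-2.59), with Chac1, Nupr1 and Atf3 to the left of each of them, the medians of the integrated stress response (-0.86) and of ATF4 targets in the cell (-1.10) are also below 0, and that of the ATF6 and XBP1 branch (0.31) is above it.

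Kinases, factors and feedback genes of the integrated stress response were divided by their place in the pathway. Of 18 genes, all expressed, 8 were at least 2-fold lower and 0 higher, with a median log2 ratio of -0.86. Over all expressed genes the shares were 3.10% lower and 3.13% higher. The kinases were within 2-fold. Eif2ak4 was 1.18-fold lower (counting interval 1.03 to 1.34), and Eif2ak1 and Eif2ak2 were 1.33- and 1.34-fold higher. Kinase activity was not measured. Eif2ak3, which senses unfolded proteins, was at 4.49 and 4.58 RPKM, Eif2ak4, which senses uncharged tRNA, at 3.82 and 3.25, Eif2ak1 at 8.30 and 11.0, and Eif2ak2 at 2.35 and 3.14. Eif2s1, the eIF2 subunit they phosphorylate, had the highest ratio of the list, at 52.2 RPKM (WT) and 82.9 RPKM (T136A).

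The low values lay among the transcription factors and feedback genes. Atf4 was at 306 RPKM (WT) and 105 RPKM (T136A), 2.91-fold lower, so each hormone was lower by a larger fold than Atf4 itself. Per unit of Atf4 RPKM, Stc2 went from 11.2% to 3.82%, Gdf15 from 8.17% to 3.82%, Adm2 from 5.65% to 1.54% and Fgf21 from 0.647% to 0. ATF4 protein was not measured, so the hormones cannot be set against its amount or activity. Ddit3, whose product CHOP is known to act on Gdf15, was at 30.3 and 7.39 RPKM, 4.10-fold lower (3.55 to 4.75). Atf3, a partner of these factors, was 20.5-fold lower (13.5 to 32.6), and the stress regulator Nupr1 had the lowest ratio of the list, at 22.7-fold lower (18.8 to 27.7). Trib3, a pseudokinase that feeds back on ATF4, was at 97.3 and 17.0 RPKM.

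ATF4 targets that stay in the cell or its membrane also had many low values. Of 30 expressed genes, 19 were at least 2-fold lower, 0 were higher and 11 lay between, with a median log2 ratio of -1.10, against -2.59 for the hormones. The shares over all expressed genes were 3.10% lower and 3.13% higher. This list was drawn up with earlier results of these libraries known, so its direction is no independent evidence. Chac1, which degrades glutathione (104 and 3.92 RPKM), was the 1 gene of the list below Stc2 and Adm2, and Chac1 and the neutral amino acid transporter Slc1a4 (39.8 and 5.51 RPKM) were below Gdf15. Fgf21, whose low level limits its log2 ratio when 1 is added, had 10 of the 30 below it. At the other end were the tRNA synthetases Tars (116 and 119 RPKM), Eprs (35.9 and 35.0 RPKM) and Wars (72.1 and 53.7 RPKM). The CARE core was in the promoter windows of 10 of the 23 expressed genes of this list that had a window. These were Chac1, Slc1a4, Asns, Pck2, Pycr1, Vldlr, Aars (-0.82), Gars (-0.95), Iars (-0.46) and Tars (0.03). Those given with a log2 ratio lay within the 2-fold line, and the window of Gpt2 (-2.32) lacked the core. Slc7a11, of the same list but under 1 RPKM in both libraries (0.279 and 0.0312), also held the core. Of 16 stress response genes with a window, 3 held it (Atf3, Nupr1 and Trib3).

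Lists around other stress pathways were counted in the same way. Beside them, 3.10% of all expressed genes were at least 2-fold lower and 3.13% at least 2-fold higher. A count of 1 or 2 in a list is therefore not read as a result. Of 20 genes of the ATF6 and XBP1 branch, which restores folding in the endoplasmic reticulum, 1 was at least 2-fold lower, 2 were higher and 17 lay between, with a median of 0.31. The chaperone Hspa5 was at 41.6 RPKM (WT) and 157 RPKM (T136A), 3.78-fold higher (3.63 to 3.93), and Hsp90b1 was at 29.7 and 73.3 RPKM. The lower gene was Herpud1, which was also nearest to Gdf15 in its levels. In plain RPKM, Pdia6 (2.002-fold) and Derl3 (2.02-fold) were over 2-fold higher too. Pdia6 passed the line with 0.1 added (1.001), under median-of-ratios scaling (1.03) and under upper-quartile scaling (1.14). Of 12 mitochondrial chaperones and proteases, whose failure is known to raise GDF15 and FGF21, 1 was at least 2-fold higher, Hspd1 (258 and 742 RPKM), and 0 were lower. Their median was 0.09, and Hspa9, at 302 and 202 RPKM, had the lowest ratio.

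Genes of p53, a known activator of Gdf15, had a median of 0.26 over 15 expressed members, with 1 at least 2-fold higher, Pmaip1 (3.54 and 9.39 RPKM), and 0 lower. The cell cycle inhibitor Cdkn1a had the lowest ratio, at 45.4 and 26.2 RPKM. Sesn1 was at 3.64 and 7.40, 2.03-fold higher in plain RPKM, and passed the line with 0.1 added (1.002). Of 11 expressed genes around PPAR alpha, which drives Fgf21 in the fasting liver, none of the 11 passed the 2-fold line, and they had a median of -0.13. Their ratios ran from -0.41 for Mlxipl (1.05 and 0.540 RPKM) to 0.20 for Rxra (4.71 and 5.54 RPKM). Hypoxia genes, a response known to raise Stc2 and adrenomedullins, had a median of 0.48 over 13 members, with 1 at least 2-fold higher, lactate dehydrogenase Ldha (161 and 441 RPKM), and 0 lower. In plain RPKM, 3 more of its genes were over 2-fold higher: Egln3 (2.15-fold), Ankrd37 (3.22-fold) and Ndrg1 (4.24-fold). Egln3 and Ankrd37, at 0.97 and 0.98 with 1 added, passed the line with 0.1 added (1.09 and 1.57) and under 4 and 3 of the other 4 scalings. Hif1a, the factor itself, was at 19.1 and 13.7 RPKM. Differences between the lists were not tested.

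The genes next to each hormone on the chromosome were compared, taking the nearest 2 expressed genes on either side. Of these 16 neighbours, 15 lay within the 2-fold line on the log2 scale with 1 added and 1 was past it on the lower side, with a median log2 ratio of -0.20. Among all expressed genes 3.10% were at least 2-fold lower and 3.13% at least 2-fold higher. The neighbour past the line was Fut1, a fucosyltransferase, next to Fgf21. It is read from the plus strand, away from Fgf21, with its start 1799 bases from that of Fgf21. Fut1 stood at 1.62 RPKM (WT) and 0.0585 RPKM (T136A), from 79 and 3 reads, 27.7-fold lower with a wide counting interval of 9.13 to 137. The CARE core at Fgf21 lies between these starts, and the promoter window of Fut1 itself held 0 of the 7 motifs.

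Further from Fgf21, Bcat2, which breaks down branched-chain amino acids, was at 16.5 and 11.7 RPKM, Hsd17b14 at 11.1 and 20.0, and the fucosyltransferase relative Sec1 at 2.29 and 0.880, 2.60-fold lower (1.78 to 3.86) in plain RPKM. Around Gdf15, Ssbp4 (26.8 and 31.8 RPKM), Isyna1 (87.3 and 138), Pgpep1 (7.82 and 6.64) and Lsm4 (192.9 and 140.8) were within 2-fold. Around Adm2 the same held for Sbf1 (8.44 and 14.6 RPKM), Ppp6r2 (4.91 and 2.75), Lmf2 (14.3 and 13.1) and Ncaph2 (36.2 and 53.8). The neighbours of Stc2 were at least 255 kb away, and Asb3, Chac2, Bod1 and Cpeb4 had log2 ratios of -0.19, -0.22, 0.01 and -0.61. With 1 added, only Fgf21 had an expressed neighbour past the 2-fold line, and nothing is read from 1 gene of 16. Fut1 fell inside the line with 5 added (-0.39). Sec1 passed it with 0.1 added (-1.29) and under TPM scaling (-1.09).

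**Figure D5:**
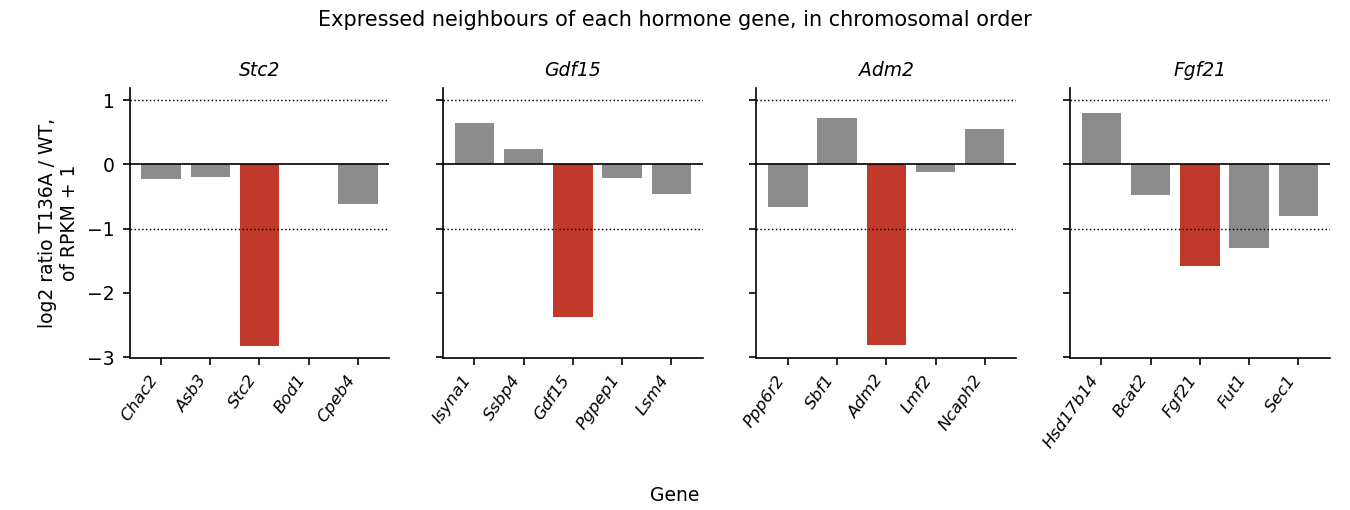
The log2 ratio of T136A to WT (RPKM + 1) of each hormone gene (red) and of the nearest 2 expressed genes on either side (grey), in chromosomal order. Dotted lines mark a 2-fold difference; of the neighbours only Fut1, beside Fgf21, passes the lower one (-1.31).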

How the data were processed

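Each library's file holds 1 value per Ensembl mouse gene, deposited by the authors and read as RPKM. No label names that unit. With GENCODE M21 exon lengths and 1 constant per library, 89.9% (WT) and 90.0% (T136A) of positive values became whole reads within 0.01, which fits RPKM. The submitters' processing notes name CASAVA 1.8 and mm9, with no role for either, and M21 describes another build (GRCm38). For the aligner, counting program and strand rule: not given in the sources used here.

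Symbols matched 25696 of 25749 identifiers, and of those sharing a symbol the highest was kept (9 dropped). Of 232 listed genes, 218 were found. Ratios are log2 of RPKM plus 1, over 12320 genes that reached 1 RPKM, computed in Python 3.11.15 with scipy 1.17.1. Printed folds are plain RPKM ratios. Counting intervals (95%, Clopper-Pearson for folds, exact Poisson for levels) use the whole reads where both values gave them; other genes carry none.

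The members, gene lists and motifs were chosen with earlier results of these data known. Named were the hormones, the expressed genes of the relatives, receptors, processing and other secreted lists, up to 3 genes at each end of the other lists, neighbours, and the 3 nearest genes by levels. Unexpressed relatives and receptors, Atf4, Ddit3, Asns, Derl3, the eIF2 kinases and Pam, Pappa2 and Fgf23 were named after their values were seen. So were the ATF4 targets named for the CARE core, apart from Chac1, Slc1a4 and Tars. The steps were tested on simulated data.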

Additional observations from a re-analysis of the deposited data

How the results depend on the processing

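No paired analysis was possible because each genotype had 1 library, and for the same reason no replicate could be left out. With 0.1 added, log2 ratios were -2.61 for Gdf15, -4.38 for Fgf21, -3.07 for Stc2 and -3.34 for Adm2, and 727 genes were at least 2-fold lower and 723 higher. With 5 added they were -1.73, -0.48, -2.13 and -1.75, with 114 and 101 genes, so Fgf21 alone of the hormones fell inside the 2-fold line. TPM scaling raises every value, so the 1 added weighs less and 14923 genes, not 12320, reach the minimum: Fgf21 was at -2.64, Stc2 at -2.998 and Adm2 at -3.16, with 755 genes lower and 840 higher. Upper-quartile scaling put Stc2 at -2.68, shifted the median of all genes by 0.13, and gave 260 lower and 561 higher genes, so that 68.3% of those past the line were higher, against 50.3% as deposited. Requiring 5 RPKM left 7603 genes, 264 lower and 209 higher. No scaling or constant turned the direction of a hormone, or of those past the 2-fold line among 106 other genes followed. Of these, 19 crossed that line in at least 1 alternative, 12 of them with 0.1 added and 5 with 5 added. Of 330 values of the lists, 284 stayed within their limit and 46 moved. Depth limits Fgf21 most, with 33 reads in WT.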
